A study of Mus musculus with 12 samples.

Results

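The motile cilia genes described here were the 73 of 24421 genes whose symbols carry the usual stems for axonemal dyneins, dynein assembly factors, radial spokes, tektins, the dynein regulatory complex and flagellar proteins (Dnah, Dnaic, Dnal, Dnaaf, Rsph, Tekt, Drc, Cfap, Spef and Spag, each with a number), together with 9 genes chosen by name. The genes chosen by name were the regulators Foxj1, Gmnc, Mcidas, Rfx2 and Rfx3 and the structural genes Hydin, Ccdc39, Ccdc40 and Dnali1. Choice was by symbol alone, so 8 of the 73 are best known for work outside the axoneme: Spag4, Spag5, Spag7, Spag9, Spag11a, Spag11b, Cfap36 and Cfap97. The rule uses symbols and no measured value, though the gene set was taken up with earlier results of these data known.

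RNA was measured by stranded mRNA sequencing in 12 mouse libraries, 3 in each of 4 groups. The groups were ZFTA-RELA ependymomas that also overexpress human ETV5, a transcription factor of the ETS family (ETV5 tumours), ZFTA-RELA ependymomas that also overexpress human NPY, the precursor of neuropeptide Y (NPY tumours), ZFTA-RELA ependymomas with neither (control tumours), and wild-type cortex without tumour. ZFTA-RELA is a fusion protein that drives ependymoma, a brain tumour with features of the cells that line the ventricles, and all 9 tumours carry it. The sources used here do not give strain, age or the promoters that drive the transgenes, nor do they say if replicates came from separate animals. The p-values therefore speak only of the spread among these libraries, which may be technical.

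A motile cilium is built around the axoneme, a ring of doublet microtubules around a central pair. Outer and inner dynein arms on the doublets make the beat, and the nexin links of the dynein regulatory complex, the radial spokes and the central apparatus control it. In the brain such cilia are found on ependymal cells, whose many beating cilia move cerebrospinal fluid, and choroid plexus epithelium carries cilia with part of the same gene set. Gmnc and Mcidas, relatives of geminin, start the multiciliated programme, and the transcription factors Foxj1, Rfx2 and Rfx3 switch on the axonemal genes, the RFX factors through a DNA element called the X-box.

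Upstream sequences are shown for 5 members, to set the core of the X-box beside the direction in which each gene moved. RefSeq (assembly GRCm38.p6) gave a promoter for 64 of the 73 members, from 250 bases before to 50 bases after the start site. The X-box core searched for was GTTNCCATG, which is a half-site of the X-box, on either strand. It stood in the promoters of 5 members (Cfap20, Cfap52, Cfap74, Dnah5 and Dnali1), which is 7.81% of 64, and in 2.22% of the promoters of 27025 genes. Each sequence gives the 250 bases before the start site, 5′ to 3′ on the strand of the gene, with the X-box core in capitals, and also TAAACA, the core of forkhead sites, wherever it stands on either strand.
Cfap74 (chr4:155408990-155409239, plus strand): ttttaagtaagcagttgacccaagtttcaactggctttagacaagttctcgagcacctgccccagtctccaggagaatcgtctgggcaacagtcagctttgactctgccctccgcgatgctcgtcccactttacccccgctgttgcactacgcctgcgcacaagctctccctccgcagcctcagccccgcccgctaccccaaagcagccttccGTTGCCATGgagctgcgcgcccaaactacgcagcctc
Cfap52 (chr11:67965643-67965892, minus strand): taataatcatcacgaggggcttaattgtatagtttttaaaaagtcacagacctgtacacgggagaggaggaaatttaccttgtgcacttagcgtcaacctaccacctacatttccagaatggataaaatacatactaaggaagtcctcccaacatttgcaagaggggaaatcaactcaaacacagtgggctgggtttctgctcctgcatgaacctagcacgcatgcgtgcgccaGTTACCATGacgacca
Dnah5 (chr15:28203516-28203765, plus strand): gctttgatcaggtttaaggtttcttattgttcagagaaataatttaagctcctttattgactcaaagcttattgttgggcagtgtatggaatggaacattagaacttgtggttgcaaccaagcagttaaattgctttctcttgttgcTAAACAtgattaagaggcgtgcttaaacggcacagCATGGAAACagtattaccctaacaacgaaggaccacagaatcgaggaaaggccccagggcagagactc
Cfap20 (chr8:95434870-95435119, minus strand): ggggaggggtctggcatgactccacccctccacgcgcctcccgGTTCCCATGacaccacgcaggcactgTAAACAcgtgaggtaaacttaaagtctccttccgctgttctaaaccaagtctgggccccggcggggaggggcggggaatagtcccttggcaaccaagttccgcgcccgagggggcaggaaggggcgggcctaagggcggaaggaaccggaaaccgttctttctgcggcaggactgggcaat
Hydin (chr8:110266727-110266976, plus strand): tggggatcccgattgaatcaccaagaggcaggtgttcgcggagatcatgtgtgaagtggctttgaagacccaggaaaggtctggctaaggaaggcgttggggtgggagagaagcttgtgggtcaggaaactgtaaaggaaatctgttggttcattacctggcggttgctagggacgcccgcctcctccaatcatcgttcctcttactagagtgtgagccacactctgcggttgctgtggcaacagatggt
The first base of the X-box core lay 37 bases before the start site in Cfap74, 16 in Cfap52, 68 in Dnah5 and 207 in Cfap20, and in Dnah5 it reads on the opposite strand. Cfap74, Cfap52 and Dnah5 were lower in control tumours than in cortex, and Cfap20 was not called. Hydin, the member with the largest rise, has no exact match for either motif in this stretch. Other forms of the X-box were not searched for, so Hydin may hold one. Among 27 members that fell and have a promoter 3 held the X-box core (11.1%), and among 9 that rose 0 did. With only 9 promoters, 0 matches cannot be told from the 7.81% of all members. The forkhead core TAAACA stood in 13 member promoters (20.3%) and in 15.1% of all, in 4 of the 27 that fell (14.8%) and in 3 of the 9 that rose (33.3%). A match is a stretch of letters and not a site shown to be bound, and no match says only that these letters are not in this window.

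Depth ranged over 6691146 to 11291057 reads in ETV5 tumours, 8214523 to 10481943 in NPY tumours, 6266613 to 9443466 in control tumours and 5962376 to 7444467 in cortex. Levels are given as CPM, the reads of a gene scaled to 1000000 reads of its library. The cortex label was checked against 13 genes of cortical excitatory neurons, whose summed level was 451 to 930.3 CPM in control tumours against 6446 to 8037 CPM in cortex. The cortex libraries also held transcripts of choroid plexus. Ttr, the transthyretin gene made there, stood at 2.01 CPM or less in every tumour library, against 1213, 1346 and 531 CPM in cortex.

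Control tumours were set against cortex to ask how far the tumour keeps the gene set of motile cilia. Most axonemal genes were lower in the tumours, while a few, Hydin, Tekt5 and the dynein assembly factors Dnaaf2, Dnaaf3 and Dnaaf5, were higher. Of the 73 members 53 had enough reads for a test, and limma called 38 of them at an adjusted p under 0.05, 29 lower and 9 higher. That is 71.7% of the tested members. Over all 14621 genes tested the share called was 72%, so the number of calls among the members is near the background. At an unadjusted p under 0.05 stood 39 members, against 74.2% of all genes tested. The directions were 54.7% lower and 17.0% higher among the members, against 36.2% lower and 35.7% higher among all genes tested. The median log2 fold change was -1.20 over the members and -0.00316 over all genes tested.

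Without the 8 genes best known outside the axoneme, 27 of 47 tested members fell, 8 rose and the median log2 fold change was -1.42. A gene can pass the read filter through its higher group alone, so these shares and medians are a description of the members that passed. The 20 members below the filter are given with their reads. Every control tumour library lay below every cortex library for 29 of the 53 tested members (54.7%) and above for 11 (20.8%). Among all genes tested the shares without overlap were 33.6% lower and 43.8% higher. Over all 73 members, whether tested or not, the counts were 37 below and 11 above. No share over all genes was worked out on that basis, and the untested members rest on few reads. In bulk tissue, fewer ciliated cells, less RNA per cell and fewer other cells that express a member cannot be told apart. Excitatory neuron markers were called lower in 13 of 13, and the part of neurons in these falls was not tested.

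**Figure D1:**
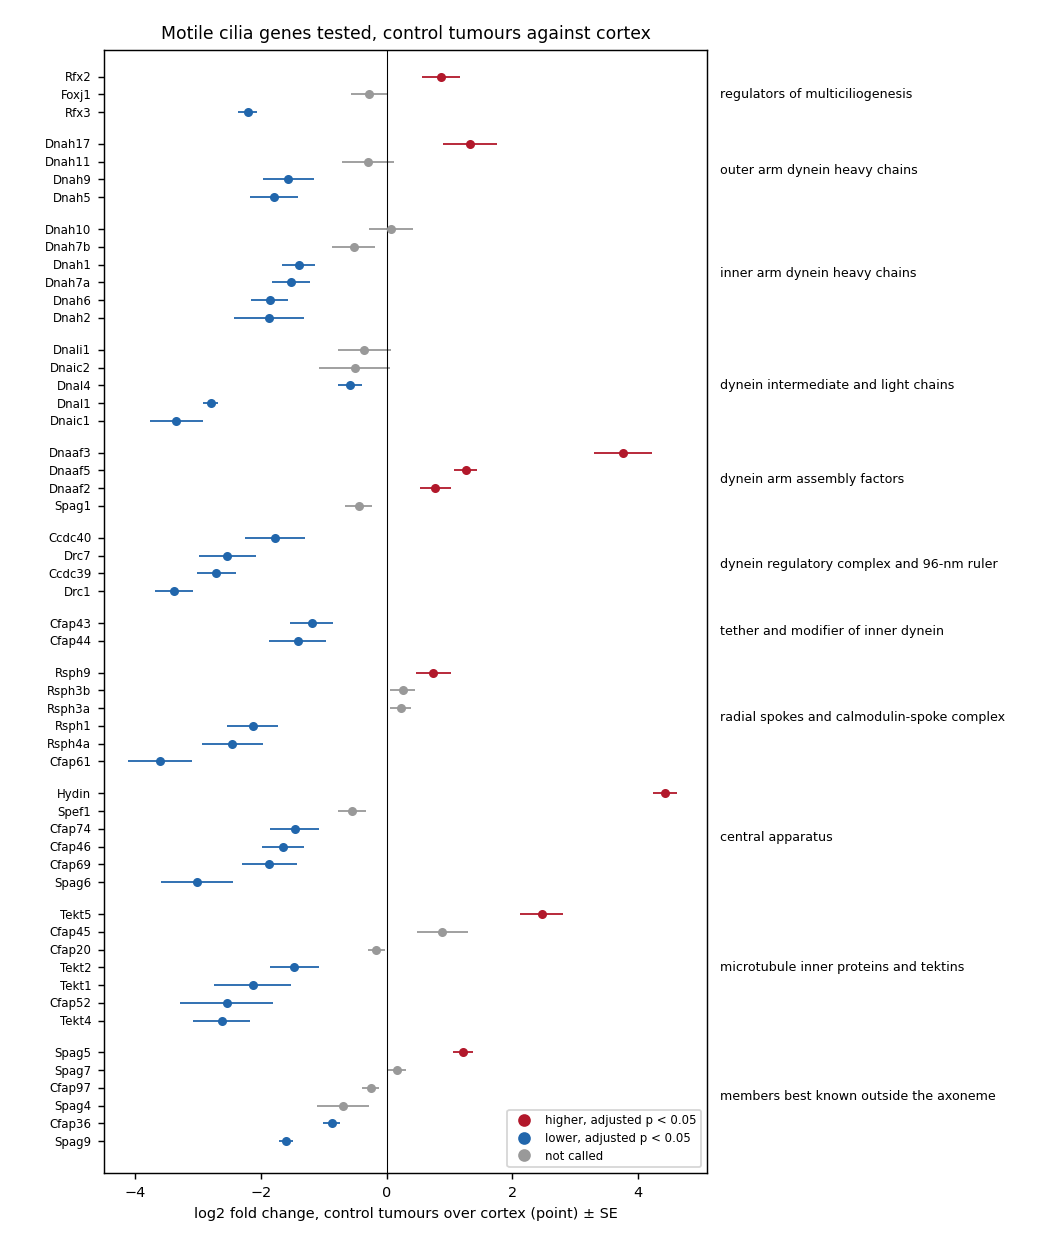
Log2 fold change of each tested member, control tumours over cortex (point, with its standard error as a bar), grouped by role; red and blue mark members called higher and lower by limma at an adjusted p under 0.05, grey marks members not called. The 4 members of the dynein regulatory complex and ruler all sit on the left, 3 of 4 assembly factors sit on the right, and Hydin is farthest to the right at 4.43.

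The regulators at the head of the programme did not move together. Foxj1, the forkhead factor needed for motile cilia, had 13.02, 9.14 and 6.38 CPM in control tumours, against 9.27, 9.22 and 11.4 CPM in cortex. The groups overlapped, and the log2 fold change of -0.29 (SE 0.29) was not called (limma adjusted p = 0.388). Rfx3 (chromosome 19, 27761721 to 28011166, minus strand, mm10) had 14.1, 14.6 and 16.3 CPM in control tumours, against 71.9, 51.5 and 64.5 CPM in cortex. It fell by 2.21 on the log2 scale (SE 0.15, limma adjusted p = 3.76e-06), with a wide gap between the groups. Rfx2 went the other way, with 6.78, 4.84 and 5.43 CPM in control tumours against 3.63, 2.01 and 2.64 CPM in cortex. Its log2 fold change was 0.87 (SE 0.31, limma adjusted p = 0.0320). The Rfx2 call ended without control replicate 1, cortex replicate 2 or cortex replicate 3, where the limma adjusted p was 0.0933, 0.108 and 0.0770 (range over all alternatives 0.0225 to 0.108).

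Gmnc and Mcidas, the inducers upstream of Foxj1, had too few reads for the test. Gmnc had 0 reads in each control tumour, against 2.15, 1.51 and 0.974 CPM in cortex, which makes it at least 12.8-fold lower in control tumours if 3 reads over the group are taken as the limit. Mcidas had 0, 0.220 and 0 CPM in control tumours, from 2 reads, against 0.269, 0.671 and 0.278 CPM in cortex. The ratio of control tumours to cortex was 0.208 for Mcidas, with an exact 95% interval of 0.0215 to 1.04 that covers counting error only. Foxj1 was thus detected in each control tumour, where Gmnc had 0 reads.

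**Figure D2:**
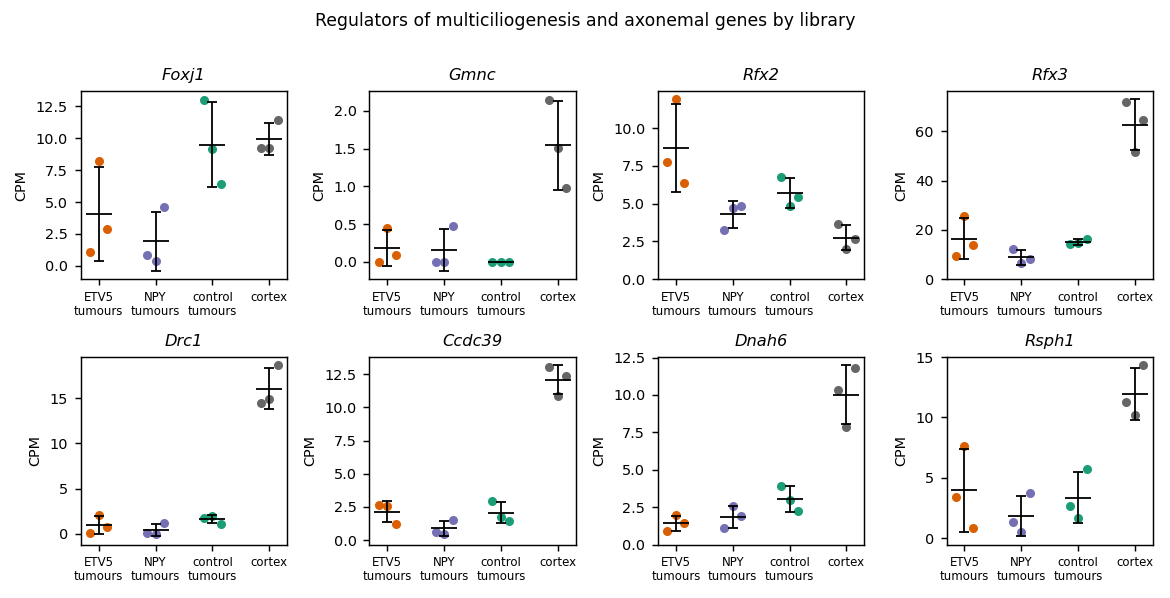
CPM of 8 members in each of the 12 libraries (points) with the mean and SD of the 3 libraries of a group (black), for ETV5 tumours, NPY tumours, control tumours and cortex from left to right. Rfx3, Drc1, Ccdc39, Dnah6, Gmnc and Rsph1 are highest in cortex, while Foxj1 in control tumours reaches 13.02 CPM and overlaps the cortex libraries.

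Among the outer arm dynein heavy chains, the motors that set beat frequency, 2 of 4 tested fell and 1 rose. Dnah5, needed for the outer arm along the whole cilium, had 2.01, 1.32 and 1.44 CPM in control tumours, against 6.58, 3.02 and 6.68 CPM in cortex. Its log2 fold change was -1.79 (SE 0.39, limma adjusted p = 0.00297) and the groups did not overlap. Dnah9, the partner of Dnah5 in the outer part of the cilium, had 2.75, 1.54 and 1.91 CPM in control tumours against 9.67, 4.19 and 4.18 CPM in cortex, a log2 fold change of -1.57 (SE 0.41, limma adjusted p = 0.00760). Cortex replicate 1 was the highest library for Dnah9 by more than 5 CPM. Dnah17, known from the sperm tail, rose, with 2.65, 3.19 and 3.19 CPM in control tumours against 1.34, 0.503 and 1.39 CPM in cortex (log2 fold change 1.32, SE 0.43, limma adjusted p = 0.0224). That call ended without control replicate 2 or cortex replicate 2, at limma adjusted p = 0.0676 and 0.0672 (range over alternatives 0.0120 to 0.0676). Dnah11, the partner of Dnah5 near the cilium base, averaged 1.32 ± 0.368 CPM in control tumours and 1.48 ± 0.419 CPM in cortex and was not called. Dnah8, another heavy chain of the sperm tail, was below the read filter, with 10 reads in control tumours and 10 in cortex.

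Inner arm heavy chains, which shape the waveform, fell in 4 of 6 tested, and 0 rose. Dnah6 averaged 3.04 ± 0.844 CPM in control tumours and 10.02 ± 1.99 CPM in cortex (log2 fold change -1.86, SE 0.30, limma adjusted p = 0.000536). Dnah2, a heavy chain of the double-headed inner arm, had 2.22, 1.76 and 0.479 CPM in control tumours, against 5.104, 2.85 and 5.99 CPM in cortex. The Dnah2 log2 fold change was -1.87 (SE 0.56, limma adjusted p = 0.0154), and the call ended without cortex replicate 1 or cortex replicate 3, at 0.0542 and 0.0602 (range over alternatives 0.00653 to 0.0602). Dnah1 and Dnah7a, single-headed inner arm dyneins, fell by 1.40 and 1.52 on the log2 scale (SE 0.27 and 0.31, limma adjusted p = 0.00142 and 0.00199). Dnah7a and Dnah7b share sequence: 29.4% of the 50-base words of Dnah7a also occur in Dnah7b, so reads could be split between them, and Dnah7b was not called (log2 fold change -0.52). Dnah10, which pairs with Dnah2 in the double-headed arm, stood at 3.07, 6.16 and 3.99 CPM in control tumours and at 3.63, 2.85 and 4.45 CPM in cortex, with overlapping groups (log2 fold change 0.06, SE 0.35, limma adjusted p = 0.878).

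Of the 5 dynein intermediate and light chains, 3 fell. Dnaic1, an intermediate chain that anchors the outer arm, had 0.318, 0.660 and 1.12 CPM in control tumours, against 6.45, 7.04 and 6.96 CPM in cortex. All cortex libraries lay far above all tumour libraries, at a log2 fold change of -3.35 (SE 0.42, limma adjusted p = 0.000124). Dnal1, an outer arm light chain, was the most abundant dynein subunit of the cortex per kilobase of exon. It had 28.6, 23.7 and 29.8 CPM in control tumours, against 172, 174 and 162 CPM in cortex, with no overlap. It fell by 2.80 on the log2 scale (SE 0.12), with the lowest adjusted p of the members (limma, 7.45e-07). Dnal4, a light chain, averaged 28.8 ± 3.85 CPM in control tumours and 39.1 ± 10.1 CPM in cortex, and control replicate 1 at 31.8 CPM lay above cortex replicate 2 at 31.5 CPM. The Dnal4 call (log2 fold change -0.59, SE 0.19, limma adjusted p = 0.0206) ended without control replicate 2 or cortex replicate 3, at 0.0673 and 0.0739 (range over alternatives 0.0175 to 0.0739). Dnaic2, another outer arm intermediate chain, and Dnali1, an inner arm light intermediate chain, were not called, with log2 fold changes of -0.51 (SE 0.56) and -0.36 (SE 0.42). Reads at Dnal1 may include some from Pnma1, whose exons overlap it by 384 bases on the opposite strand, since the sources used here do not say whether counting used strand.

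The factors that fold and assemble dynein arms in the cytoplasm differed among themselves: of the members 3 of 4 tested rose and 0 fell, while Zmynd10 and Lrrc6, assembly factors that the symbol rule leaves out, fell. Zmynd10 had 1.27, 0.330 and 0.319 CPM in control tumours against 5.51, 3.35 and 4.04 CPM in cortex (log2 fold change -2.87, SE 0.52, limma adjusted p = 0.00107). Ttc12, another assembly factor left out by the rule, had overlapping control and cortex libraries. Dnaaf3 (chromosome 7, 4522933 to 4532453, minus strand) had 9.74, 11.6 and 20.1 CPM in control tumours, against 0.940, 0.335 and 1.25 CPM in cortex. That is a log2 fold change of 3.76 (SE 0.47, limma adjusted p = 0.000118), with every tumour library above every cortex library. Its exons share 86 bases on the same strand with Tnni3, the cardiac troponin I gene, which had 6.78, 7.15 and 34.9 CPM in control tumours and at most 0.168 CPM in cortex. Control replicate 3 was the highest of the control tumours for both genes, and how many Dnaaf3 reads came from Tnni3 was not tested. Dnaaf5 (chromosome 5, 139150223 to 139186510, plus strand) had 23.9, 23.0 and 21.1 CPM in control tumours against 7.52, 9.39 and 8.21 CPM in cortex (log2 fold change 1.26, SE 0.18, limma adjusted p = 0.000299). Dnaaf2 averaged 10.5 ± 1.84 CPM in control tumours and 5.40 ± 0.758 CPM in cortex (log2 fold change 0.77, SE 0.25, limma adjusted p = 0.0210). The Dnaaf2 call ended without control replicate 1 or 2 or cortex replicate 1 or 3, at adjusted p = 0.0632, 0.0587, 0.0767 and 0.0576 in limma (range over alternatives 0.00848 to 0.0767). Gm15672 overlaps 373 exon bases of Dnaaf5 on the opposite strand. Predicted genes overlap 1457 bases of the Dnaaf2 exons on its own strand, so its reads are uncertain. Spag1, another assembly factor, was not called (log2 fold change -0.44, SE 0.21), and Dnaaf1 was below the filter with 6 reads in control tumours and 8 in cortex.

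All 4 members of the dynein regulatory complex and of the molecular ruler that spaces dyneins and spokes along the doublet fell. Drc1, at the base of the nexin link, had 1.80, 1.98 and 1.12 CPM in control tumours, against 14.5, 14.9 and 18.7 CPM in cortex. Its log2 fold change of -3.39 (SE 0.30, limma adjusted p = 1.64e-05) came with no overlap between groups. Ccdc39, a ruler protein, had 2.97, 1.76 and 1.44 CPM in control tumours, against 13.03, 10.9 and 12.4 CPM in cortex (log2 fold change -2.71, SE 0.31, limma adjusted p = 7.9e-05). Ttc14 overlaps 1256 bases of the Ccdc39 exons on the opposite strand. Ccdc40, its partner in the ruler, averaged 0.718 ± 0.347 CPM in control tumours and 2.34 ± 0.564 CPM in cortex, a log2 fold change of -1.78 (SE 0.48, limma adjusted p = 0.00897). Drc7 fell by 2.53 (SE 0.46, limma adjusted p = 0.00112). Cfap43 and Cfap44, which tether the head of an inner dynein, fell by 1.20 and 1.42 (SE 0.35 and 0.46, limma adjusted p = 0.0136 and 0.0211). The Cfap43 call ended without cortex replicate 2 (0.0597, range over alternatives 0.0108 to 0.0597) and the Cfap44 call without cortex replicate 1 or 3 (0.0578 and 0.0916) or with all 9 libraries of the table in the fit (0.0737, range 0.0139 to 0.0916). Cfap57, which also acts on inner dyneins, had 3 reads in control tumours and 19 in cortex, below the filter.

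Of 6 tested radial spoke genes 3 fell, 1 rose and 2 were not called. Rsph1 and Rsph4a, proteins of the spoke head, fell: Rsph1 had 2.65, 1.65 and 5.74 CPM in control tumours against 11.3, 10.2 and 14.3 CPM in cortex, and Rsph4a had 1.16, 0.550 and 0.479 CPM in control tumours against 3.49, 2.52 and 6.54 CPM in cortex. Their log2 fold changes were -2.13 (SE 0.41) and -2.46 (SE 0.48), with limma adjusted p = 0.00148 and 0.00174. Rsph9, another head protein, was higher in control tumours, at 13.9, 22.6 and 19.8 CPM against 12.2, 6.71 and 11.1 CPM in cortex (log2 fold change 0.74, SE 0.28, limma adjusted p = 0.0386). The Rsph9 call ended without control replicate 2 or 3 or cortex replicate 2 or 3, at limma adjusted p = 0.129, 0.0675, 0.134 and 0.0566 and also with the replicate number as a block (0.0641) or with all 9 libraries of the table in the fit (0.125), in a range of 0.0162 to 0.134. Cfap61, of the calmodulin and spoke complex at the base of a spoke, had 1 read in all control tumours against 34 in cortex, where its level was 1.61, 1.68 and 1.67 CPM. The ratio of control tumours to cortex for Cfap61 was 0.0244 (exact 95% interval 0.000601 to 0.146, counting error only). Rsph3a and Rsph3b, copies of a stalk gene, share 54.4% of 50-base words and had nearly the same level in each library, so they cannot be told apart here; neither was called with all libraries (log2 fold changes 0.22 and 0.25), and both were without control replicate 1. Rsph6a had 0 reads in control tumours and 2 in cortex, and Rsph14 had 1 and 7.

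Central apparatus genes fell in 4 of 6 tested, and the 1 that rose, Hydin, had the largest rise among the members. Hydin (chromosome 8, 110266977 to 110610253, plus strand, protein coding), whose protein makes a projection of the central pair and whose loss gives hydrocephalus in mice, had 52.3, 58.8 and 52.8 CPM in control tumours, against 1.88, 2.18 and 2.37 CPM in cortex. The 3 tumour libraries lay within 7 CPM of each other and far above cortex. Its log2 fold change was 4.43 (SE 0.19, limma adjusted p = 8.38e-07) and stayed between 4.03 and 4.54 over all alternatives. On the opposite strand Gm26832 overlaps 237 of the 18037 exon bases of Hydin, and 5830444B04Rik overlaps 453 exon bases of Cfap74, so a part of their reads could come from those genes. Spag6, a central pair protein that binds others there, went the opposite way, with 1.59, 0.220 and 1.28 CPM in control tumours against 6.18, 6.54 and 7.52 CPM in cortex (log2 fold change -3.02, SE 0.57, limma adjusted p = 0.00143). Cfap69, Cfap46 and Cfap74, of projections of the central pair, fell by 1.87, 1.65 and 1.46 (SE 0.44, 0.34 and 0.39, limma adjusted p = 0.00460, 0.00227 and 0.00911). Spef1, which bundles the central microtubules, lay lower in every control tumour library, at 9.001, 7.82 and 8.30 CPM against 9.40, 13.8 and 10.02 CPM in cortex, and was not called (log2 fold change -0.55, SE 0.23, limma adjusted p = 0.0553). Below the filter, Spag6l had 4 reads in control tumours and 39 in cortex, Spag17 had 7 and 16, Spag16 had 10 and 22, Spef2 had 11 and 32, Cfap70 had 6 and 19, and Cfap221 had 1 and 8.

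Tektins and other proteins inside the doublet microtubules were lower in 4 of 7 tested members and higher in 1. Tekt5 (chromosome 16, 10357948 to 10395490, minus strand), a tektin described in the sperm tail, had 47.9, 32.1 and 45.3 CPM in control tumours, against 8.06, 3.52 and 9.61 CPM in cortex. It rose by a log2 fold change of 2.47 (SE 0.34, limma adjusted p = 0.000228) with no overlap between groups. The other tektins tested fell. Tekt1 had 1.38, 0.881 and 0.160 CPM in control tumours against 2.82, 3.02 and 2.78 CPM in cortex (log2 fold change -2.13, SE 0.61, limma adjusted p = 0.0126), Tekt2 changed by -1.47 (SE 0.39, limma adjusted p = 0.00861) and Tekt4 by -2.63 (SE 0.46, limma adjusted p = 0.000886). Tekt3 had 7 reads in control tumours and 1 in cortex, too few for a test. Cfap52, a doublet protein, fell by 2.55 (SE 0.74, limma adjusted p = 0.0135), and that call ended without cortex replicate 2 at 0.0592 (range over alternatives 0.00485 to 0.0592). Cfap45, another, lay higher in every control tumour library, at 9.11, 4.73 and 3.19 CPM against 2.42, 2.52 and 2.37 CPM in cortex, and was not called (log2 fold change 0.88, SE 0.40, limma adjusted p = 0.0781). Cfap45 was called by edgeR and DESeq2 at adjusted p = 0.0467 and 0.0493, and by limma without control replicate 3 at adjusted p = 0.0118, where the alternatives ranged over 0.0118 to 0.269. Cfap20, which also serves primary cilia, stood at 38.3 ± 4.52 CPM in control tumours and 38.0 ± 3.02 CPM in cortex. Cfap126, Cfap53 and Spag8 were below the filter, with 31, 11 and 19 reads in control tumours against 28, 7 and 27 in cortex.

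**Figure D3:**
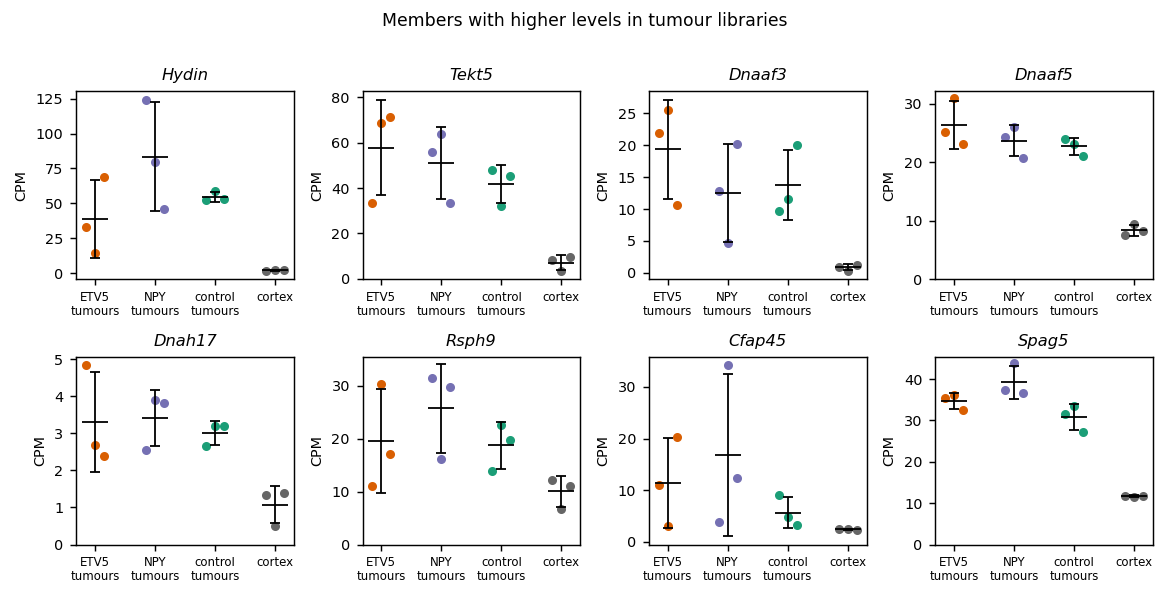
CPM of 8 abundant or higher members in each of the 12 libraries (points) with the mean and SD of 3 libraries (black), for ETV5 tumours, NPY tumours, control tumours and cortex from left to right. Hydin reaches 124 CPM in NPY tumours and stays under 3 CPM in cortex, and Tekt5, Dnaaf3, Dnaaf5, Dnah17, Cfap45 and Spag5 have all 9 tumour libraries above all 3 cortex libraries, while Rsph9 does not.

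Members best known outside the axoneme were not of 1 kind. Spag5, the spindle protein astrin, rose with a log2 fold change of 1.22 (SE 0.16, limma adjusted p = 0.000161), at 31.7, 33.6 and 27.3 CPM in control tumours against 11.7, 11.4 and 11.8 CPM in cortex. The 12 markers of cycling cells also rose, all of 12, with a summed level of 696 to 1007 CPM in control tumours against 27.7 to 29.7 CPM in cortex, and their part in the Spag5 result was not tested. Spag9, a scaffold for kinases on moving vesicles, fell by 1.601 on the log2 scale (SE 0.11, limma adjusted p = 5.21e-06), at 182, 173 and 212 CPM in control tumours against 504, 548 and 472 CPM in cortex. Cfap36, a binding partner of the small GTPase Arl3, fell by 0.88 (SE 0.14, limma adjusted p = 0.000514). Spag7, Cfap97 and Spag4 were not called, with log2 fold changes of 0.16, -0.26 and -0.70. Spag11a had 0 reads in all 12 libraries, and Spag11b had 1 read, in cortex. Cfap58, which was put in no group by role, had 2 reads in control tumours and 17 in cortex.

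Per kilobase of exon, which allows genes to be compared, the order of the levels differed between tissues. Spag7 led in control tumours at 32.1 CPM per kilobase, before Tekt5 at 23.1 and Cfap36 at 21.2. In cortex Spag9 led at 45.3 CPM per kilobase, followed by Cfap36 at 34.1, Spag7 at 25.4 and Dnal1 at 24.4. Tekt5 was thus second in control tumours, above each of the dyneins and spoke genes, and its level per kilobase in cortex was 3.91. Dnal1 had 3.94 CPM per kilobase in control tumours, against the 24.4 of cortex. Hydin, despite its reads, had only 3.03 CPM per kilobase in control tumours and 0.119 in cortex, since its exons span 18037 bases. The axonemal heavy chains were all under 1 CPM per kilobase in both tissues.

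Over all 9 tumour libraries against the 3 cortex libraries, 31 of 67 members with at least 15 reads lay lower in every tumour and 9 lay higher, and 27 overlapped. The background over 17115 genes was 25.5% lower and 32.3% higher. The 9 were Cfap45, Dnaaf2, Dnaaf3, Dnaaf5, Dnah17, Hydin, Spag5, Spag7 and Tekt5. Rfx2 and Rsph9, both called higher in control tumours, were not among them: the lowest NPY tumour had 3.28 CPM of Rfx2, under the 3.63 CPM of cortex replicate 1. Among the 31 were Rfx3, Gmnc, Drc1, Ccdc39, Dnaic1, Dnal1 and Spag6.

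Genes of the motile cilium that the symbol rule leaves out gave a picture of like kind. Of 62 such genes that were measured, 39 were tested, and 24 fell (61.5%), 3 rose (7.69%) and 12 were not called. The median log2 fold change was -1.53. The share called was 69.2%, where among all genes tested 72% were called, 36.2% lower and 35.7% higher. The gene 1700001L19Rik had 0.847, 0.660 and 1.596 CPM in control tumours against 16.9, 16.6 and 10.6 CPM in cortex (log2 fold change -3.89, SE 0.37, limma adjusted p = 2.38e-05). Lrrc6, a dynein assembly factor, and Ccdc65, of the dynein regulatory complex, fell by 3.26 and 3.02 (limma adjusted p = 0.000662 and 0.000403). The rise of Dnaaf2, Dnaaf3 and Dnaaf5 was thus not shared by Lrrc6 or Zmynd10. Ttc12, another assembly factor of this list, had 7.31, 5.83 and 9.41 CPM in control tumours. In cortex Ttc12 had 3.63, 6.21 and 5.85 CPM, so the groups overlapped. Among the genes that rose were Mlf1 and Ropn1l, with log2 fold changes of 2.75 and 1.42 (limma adjusted p = 0.000183 and 0.0179).

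In a list of genes of centriole amplification, which supplies the basal bodies of many cilia, and of multiciliogenesis, more tested genes rose than fell. Of 13 tested genes 7 rose (53.8%) and 2 fell (15.4%, Rfx4 and Tuba1a), against 35.7% and 36.2% of all genes tested. Of the 19 measured, 6 were not tested and are not in these counts. Each control tumour had 0 reads for 1 to 3 of the 19, and each cortex library for 2 to 3. Summed over the 19, the level was lower in control tumours, at 2126, 1744 and 2076 CPM against 2300, 2400 and 2489 CPM in cortex. Gmnn, the geminin gene, had 26.0, 22.8 and 23.9 CPM in control tumours against 1.34, 0.671 and 1.81 CPM in cortex, and Plk4, the kinase that starts centriole duplication, averaged 23.1 ± 5.76 CPM in control tumours and 4.21 ± 0.742 CPM in cortex. Their log2 fold changes were 4.05 and 2.23, and that of Stil, which works with Plk4, was 4.01 (limma adjusted p = 1.21e-05, 0.00011 and 4.59e-05). These genes also serve cell division, and cycling cell markers moved with them, as given above; their part was not tested. Intraflagellar transport and primary cilium genes, used by non-motile cilia too, fell in 19 of 38 (50%) and rose in 5 (13.2%). The other 14 were not called, and the median was -0.42. The share called was 63.2%, under the 72% of all genes tested. Kif3a, a motor subunit of that transport, fell by 2.28 (limma adjusted p = 1.35e-06), while Ift43 rose by a log2 fold change of 2.06 (limma adjusted p = 1.24e-05).

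Of the cells that could carry the cilia, markers of choroid plexus were mostly lower in control tumours. Markers of ependymal cells rose in a share near that of all genes, and fewer of them fell. Of 16 tested choroid plexus markers 10 fell (62.5%) and 4 rose (25%), against 36.2% and 35.7% of all genes tested. Their summed level was 477 to 899 CPM in control tumours against 1168 to 2520 CPM in cortex. The log2 fold changes of the tested choroid plexus markers ran from -10.1 to 5.69, so they did not all move together. Of 16 tested ependymal markers 6 rose (37.5%) and 3 fell (18.8%), with a median log2 fold change of 0.26. Tmem212, Ccdc153, Dynlrb2 and Meig1 of this list are also among the motile cilia genes outside the rule. The sums were 2752 to 3402 CPM in control tumours and 272 to 415 CPM in cortex. Vim, which many other cells express, had the largest share in control tumours (1981 ± 165 CPM, against 39.6 ± 2.02 CPM in cortex). The 13 excitatory neuron markers all fell. The part of these cell types in the results was not tested. Cortex replicate 3 had the lowest choroid plexus level, 52.2% of the cortex mean against 117.7 and 122.3% in the others. The median of the tested motile cilia genes was 104.6% of the cortex mean in that library and 99.5 and 93.1% in the others. Germ cell markers were near 0: of 12, 6 to 9 had 0 reads in each control tumour, and only Sycp3 was tested (log2 fold change -0.83, limma adjusted p = 0.0341).

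**Figure D4:**
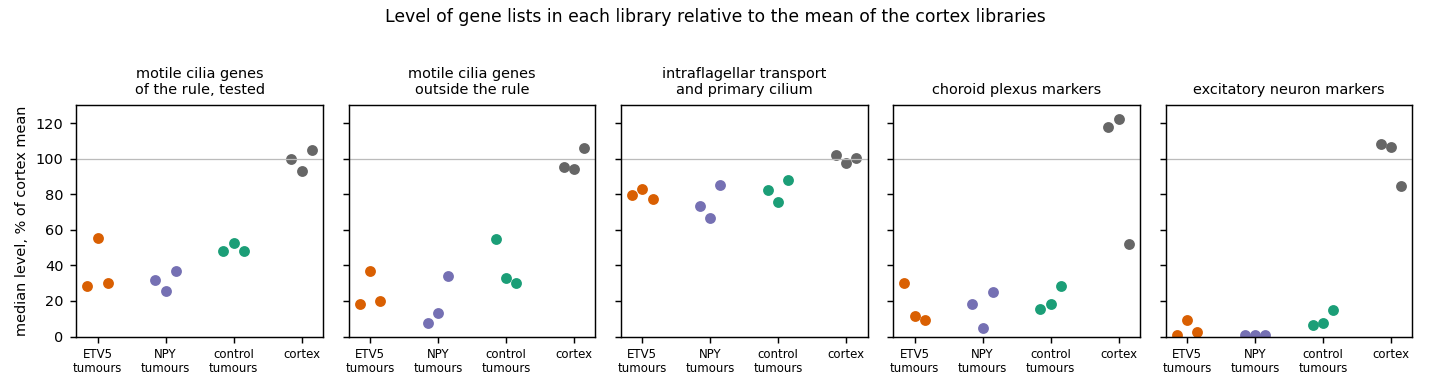
Median level of 5 gene lists in each library (point), as percent of the mean of the 3 cortex libraries (grey line at 100), for ETV5 tumours, NPY tumours, control tumours and cortex from left to right. The tested motile cilia genes stand at 47.9 to 52.7% in control tumours and at 25.5 to 37.0% in NPY tumours, while primary cilium genes stay at 66.6 to 88.1% in all tumours. Those motile cilia genes passed a read filter on control and cortex libraries, without the ETV5 and NPY libraries.

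The ETV5 tumours were set against control tumours to ask whether the added factor alters the programme. For these genes 0 of 40 tested members were called by limma, where the background was 0% of 14382 genes. At an unadjusted p under 0.05 stood 2 members, against 944 of all genes (6.56%), and edgeR and DESeq2 also called 0 members. The median log2 fold change of the members was -0.03, against -0.02 over all genes tested. Every ETV5 library lay below every control library in 3 of the 40 tested members (7.5%), and above in 0, where 7.08% and 7.1% of all genes tested did so. The 3 were Dnah6, Dnah9 and Dnah10. Among members below the read filter, which rest on few reads, Cfap44, Cfap53, Dnah11, Dnali1, Spag4 and Tekt2 also lay lower in each ETV5 library. For genes below the filter no share over all genes was worked out, so these members have no background beside them. The control tumours enter both this comparison and the NPY comparison.

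Dnah10 had the lowest p in the ETV5 comparison, with 0.131, 0.747 and 1.95 CPM in ETV5 tumours, against 3.07, 6.16 and 3.99 CPM in control tumours. No ETV5 library reached the control libraries, and the log2 fold change of -2.47 (SE 0.81) had a limma adjusted p = 0.732. Dnah9 followed, at 0.131, 0.897 and 0.709 CPM in ETV5 tumours against 2.75, 1.54 and 1.91 CPM in control tumours (log2 fold change -1.81, SE 0.67, limma adjusted p = 0.732). Dnah6 had 0.919, 1.94 and 1.42 CPM in ETV5 tumours against 3.92, 2.97 and 2.23 CPM in control tumours (log2 fold change -1.05, SE 0.46, not called). The fitted value was negative in 6 of 6 inner arm heavy chains and in 1 of 3 outer arm chains. Of the outer arm chains Dnah5 had 0.69 and Dnah17 0.06, and 0 were called in either class. A member can pass the read filter through its higher group alone, so these counts only describe the members that passed.

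The regulators varied widely among the ETV5 tumours. Foxj1 had 1.05, 8.22 and 2.92 CPM in ETV5 tumours, against 13.02, 9.14 and 6.38 CPM in control tumours, a log2 fold change of -1.58 (SE 0.73) that was not called. ETV5 replicate 2 lay within the control range and the others below it. Leaving out ETV5 replicate 2 gave Foxj1 a log2 fold change of -2.29, leaving out ETV5 replicate 1 gave -0.87, and neither fit called it. Rfx2 averaged 8.69 ± 2.91 CPM in ETV5 tumours and 5.68 ± 0.992 CPM in control tumours (log2 fold change 0.55, SE 0.33, not called). Rfx3 had 9.58, 25.6 and 13.99 CPM in ETV5 tumours and a log2 fold change of 0.00 (SE 0.37).

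Over the whole set the ETV5 libraries differed in the median level and were close in the summed level. The median level of the 53 members tested against cortex was 28.5, 55.6 and 30.0% of the cortex mean in ETV5 tumours, against 47.9, 52.7 and 48.1% in control tumours. These 53 members had passed a read filter on control and cortex libraries without the ETV5 libraries, which can favour the control tumours. The summed level of the 53 was 773, 817 and 826 CPM in ETV5 tumours and 783, 759 and 848 CPM in control tumours, with overlap. Ependymal markers were negative in 13 of 14, with 0 called. Excitatory neuron markers, 0 of 13 of them called, stood in the same libraries at 0.666, 9.29 and 2.66% in ETV5 tumours against 6.72, 7.78 and 14.7% in control tumours, with sums of 88.6 to 609 CPM in ETV5 tumours and 451 to 930.3 CPM in control tumours. The part of admixed cortex was not tested. Of 25 tested motile cilia genes outside the rule 22 had negative values and 0 were called, with a median of -0.64. The median over all genes tested was -0.02. The share of negative values over all genes was not worked out, so the sign counts of these lists have no background.

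The NPY tumours were set against control tumours to ask the same of the added peptide. Here 0 of 43 tested members were called by limma, where the background was 5.04% of 14425 genes, 4.31% lower and 0.728% higher. At an unadjusted p under 0.05 stood 8 members, against 23.5% of all genes, edgeR called 0 members and DESeq2 called 2. The median log2 fold change of the members was -0.29, against 0.04 over all genes tested. NPY libraries lay below all control libraries in 10 of the 43 tested members (23.3%) and above in 1, Spag5 (2.33%), where 18.4% and 11.1% of all genes tested did so. Members and all genes tested passed the same read filter, which a gene can pass through its higher group alone. All NPY libraries carry the code prefix EC and all control libraries the prefix DS, so prefix and group cannot be told apart. The whole count of called genes hung on single control libraries: it was 727 with all libraries, 138 without control replicate 1, 1 without control replicate 2 and 78 without control replicate 3, and 125 without NPY replicate 1.

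Dnal1, the outer arm light chain, had 14.3, 14.97 and 17.0 CPM in NPY tumours, against 28.6, 23.7 and 29.8 CPM in control tumours. The groups did not overlap, and the log2 fold change was -0.73 (SE 0.17, limma adjusted p = 0.0609). Dnah10 had 0.243, 0.609 and 1.34 CPM in NPY tumours, against 3.07, 6.16 and 3.99 CPM in control tumours, a log2 fold change of -2.51 (SE 0.61, limma adjusted p = 0.0663). DESeq2 called both, at adjusted p = 0.00695 and 0.00856, where the alternatives ranged over 0.00695 to 0.204 for Dnal1 and 0.00856 to 0.202 for Dnah10. Limma on CPM with TMM scaling called Dnah10 as well, at adjusted p = 0.0497.

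Foxj1 had 0.850, 0.365 and 4.58 CPM in NPY tumours, against 13.02, 9.14 and 6.38 CPM in control tumours. All 3 NPY tumours lay below the control tumours, with NPY replicate 3 nearest to them. The log2 fold change was -2.75 (SE 0.83, limma adjusted p = 0.111). Without NPY replicate 3 it was -3.68 and called (limma adjusted p = 0.0284, range over alternatives 0.0284 to 0.271). Dnali1, an inner arm chain, had 0, 0.243 and 0.572 CPM in NPY tumours against 1.16, 2.09 and 1.44 CPM in control tumours (log2 fold change -2.35, SE 0.76, limma adjusted p = 0.128). Rfx3 had 12.1, 6.45 and 8.01 CPM in NPY tumours against 14.1, 14.6 and 16.3 CPM in control tumours (log2 fold change -0.71, SE 0.27, limma adjusted p = 0.181).

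Hydin, Tekt5 and the assembly factors, high in control tumours, were high in the other tumours too. Hydin had 32.8, 14.2 and 69.3 CPM in ETV5 tumours and 124, 79.9 and 46.4 CPM in NPY tumours, against 52.3, 58.8 and 52.8 CPM in control tumours. The spread within the ETV5 and NPY tumours was wider than in control tumours, and both groups overlapped them. Tekt5 had 33.6, 68.7 and 71.4 CPM in ETV5 tumours and 56.0, 63.9 and 33.4 CPM in NPY tumours, against 47.9, 32.1 and 45.3 CPM in control tumours. Dnaaf3 had 21.9, 25.6 and 10.6 CPM in ETV5 tumours and 12.9, 4.75 and 20.1 CPM in NPY tumours, against 9.74, 11.6 and 20.1 CPM in control tumours. Cfap45 was the most uneven, with 11.02, 2.99 and 20.4 CPM in ETV5 tumours and 3.89, 34.2 and 12.3 CPM in NPY tumours against 9.11, 4.73 and 3.19 CPM in control tumours. None of these 4 was called in a comparison between tumours.

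Markers of neurons and of cycling cells differed in the NPY tumours as well. Cycling cell markers were positive in 12 of 12, with 2 called higher (Cdk1 and Kif11), and their sums were 1391, 1748 and 1289 CPM in NPY tumours against 874, 1007 and 696 CPM in control tumours. Spag5, the spindle gene, was the member above all control libraries in the NPY tumours, and the part of cycling cells in its level was not tested. Ependymal markers were negative in 10 of 13, with 0 called. Shares of positive and negative values over all genes were not worked out. Of 12 tested excitatory neuron markers 8 fell, and their level was 0.829, 0.863 and 0.684% of the cortex mean in NPY tumours against 6.72, 7.78 and 14.7% in control tumours, with sums of 90.0 to 112 CPM in NPY tumours and 451 to 930.3 CPM in control tumours. The median of the 53 motile cilia genes was 31.7, 25.5 and 37.0% of the cortex mean in NPY tumours, against 47.9, 52.7 and 48.1% in control tumours. Their sums overlapped, at 833, 715 and 759 CPM in NPY tumours against 783, 759 and 848 CPM in control tumours, and the 53 had passed a read filter on control and cortex libraries without the NPY libraries. The part of admixed cortex was not tested. Of the centriole list 1 of 14 tested genes was called, Rfx4, an RFX factor of neural progenitors, with 5.1, 2.68 and 4.58 CPM in NPY tumours against 13.2, 12.5 and 15.2 CPM in control tumours (log2 fold change -1.66, SE 0.30, limma adjusted p = 0.0325). Motile cilia genes outside the rule and primary cilium genes had 0 of 24 and 0 of 38 called.

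**Figure D5:**
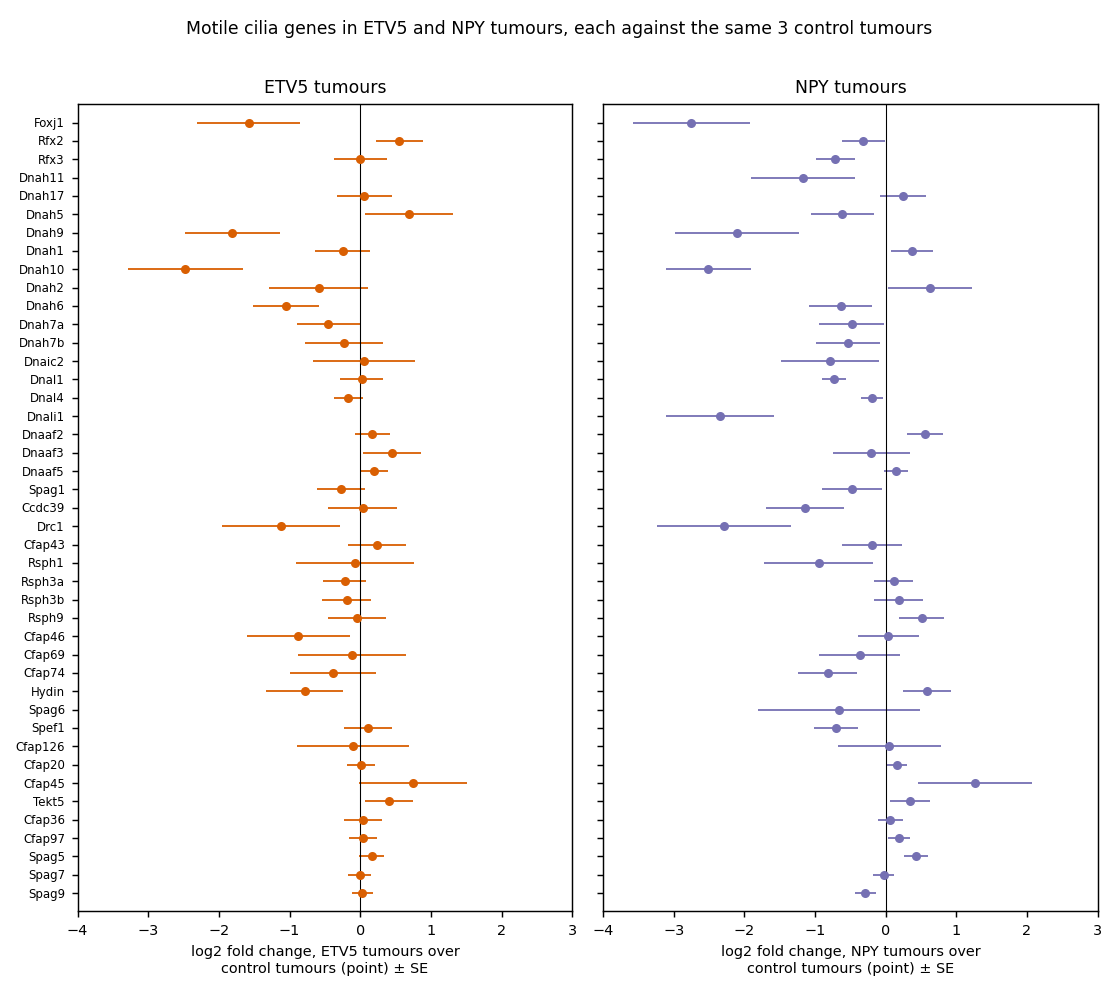
Log2 fold change (point, with its standard error as a bar) of the members tested in ETV5 tumours (left panel) and in NPY tumours (right panel), each over the same 3 control tumours. Foxj1, Dnah9, Dnah10 and Drc1 lie left of 0 in both panels with wide bars, Hydin and Tekt5 lie within 1 log2 unit of 0, and limma called 0 members in either comparison.

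ETV5 tumours were last set directly against NPY tumours, a comparison that uses the control tumours only to scale the libraries. Limma called 0 of 35 tested members, where the background was 0% of 14023 genes, and at an unadjusted p under 0.05 stood 2 members against 5.93% of all genes. Both edgeR and DESeq2 called 0 members. ETV5 libraries lay above all NPY libraries in 4 of the 35 tested members (Dnah5, Dnal1, Rfx2 and Spag9) and below in 2 (Dnah2 and Spag5), where 7.47% and 4.98% of all genes tested did so. Dnal1 had 17.8, 38.0 and 31.6 CPM in ETV5 tumours, against 14.3, 14.97 and 17.0 CPM in NPY tumours (log2 fold change 0.79, SE 0.30, limma adjusted p = 0.794). Rfx2 had 7.74, 11.96 and 6.38 CPM in ETV5 tumours, against 3.28, 4.75 and 4.87 CPM in NPY tumours (log2 fold change 0.91, SE 0.37, limma adjusted p = 0.794). Dnah2 went the other way, with 0.525, 1.35 and 0.709 CPM in ETV5 tumours against 2.06, 1.95 and 1.72 CPM in NPY tumours (log2 fold change -1.19, SE 0.52, not called). The Hydin value of -1.33 (SE 0.63, not called) became -0.20 with the library code prefix in the fit; ETV5 replicate 3 has the prefix of the NPY libraries.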

How the data were processed

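The authors deposited 2 tables of 24421 genes, 1 with ETV5, control and cortex libraries and 1 with NPY libraries and the same control libraries. Per the submitters' processing notes, the tools were STAR 2.5.0a, DESeq2 1.30.1, FastQC 0.11.7 and MultiQC 1.6, on build mm10; which tool counted reads, and on which annotation, is not given in the sources used here. Per the labels' protocols, 300 ng of RNA went into stranded paired-end mRNA libraries. The deposited values are a normalized signal, the count of each gene over 1 size factor for its library: whole reads came back for 100% of values (tolerance 0.01 read), and the control libraries had the same reads in both tables. Among the symbols of each file, 27 had turned into dates.

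Values were tested with limma 3.58.1 (mean-variance trend, robust, two-sided) on log2(deposited value + 1), so fold changes of low genes are understated. Genes needed 10 reads in enough libraries and 15 in all (filterByExpr of edgeR 4.0.16), group was the sole term, and p-values were adjusted by Benjamini-Hochberg over all genes tested, with a threshold of 0.05. ETV5 against NPY used values rescaled by the median of ratios across all tumours, control tumours included. CPM and reads per kilobase used the recovered reads and GENCODE M21 exons; all 73 members were found there. DESeq2 1.42.0, edgeR and limma on log2(CPM + 1) on recovered reads, pseudocounts of 0.5 and 5, no filter, left-out libraries, the replicate number as a block, all 9 libraries of a table and the library code prefix as a covariate were tried. The limma fit was tested on simulated data. Members, lists and tests were chosen with earlier results of these data known. Genes named are those listed singly in the rule, up to 3 called per direction of each class, the 5 lowest p in comparisons between tumours, the genes best known outside the axoneme, and for other lists up to 3 called per direction or the 3 most abundant; other members are named only to account for all, and genes in counts of 5 or fewer were named after their values were seen. Zmynd10 and Ttc12 were not picked by these criteria and were named with their values known. Ppip5k2 and Sun5 have older names that match the rule and are not included.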

Additional observations from a re-analysis of the deposited data

How the results depend on the processing

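Between control tumours and cortex, 33 to 41 members were called when 1 library was left out (6 to 9 higher, 27 to 32 lower), against 38 with all. EdgeR and DESeq2 called 39 each, with Cfap45 added, limma on CPM with TMM scaling 38 and the fit without a filter 46. No named member changed direction with a call in any alternative, and the 9 whose call ended in some fit (Rfx2, Rsph9, Dnaaf2, Dnah17, Dnal4, Dnah2, Cfap43, Cfap44 and Cfap52) are given with their values beside the results. In NPY against control tumours DESeq2 called 2 members (both lower: Dnah10 and Dnal1), limma on CPM with TMM scaling called 1 (Dnah10, lower), and the fits without 1 library called 0 to 1; the cause was not tested. Both other comparisons called 0 members in each alternative run. Over all genes, DESeq2 called 1833 in NPY against control tumours (727 in limma), 75 in ETV5 against control tumours and 56 in ETV5 against NPY tumours (0 in limma for both). Of the NPY calls 33.1% were higher in DESeq2 and 14.4% in limma.

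Replicate numbers were not read as a pairing of libraries: correlations between libraries of the same number, after group means were removed, ranged from -0.41 to 0.37. With the replicate number as a block 37 members were called between control tumours and cortex (8 higher, 29 lower), and 0 in each of the other comparisons, while of all genes 264 were called with the block in NPY against control tumours, where 727 were without it. Members under about 1 CPM rest on a few reads per library, and 8 were under 1 CPM in all 12 libraries.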
